A study of Mus musculus with 24 samples.

Results

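Genes of the motile cilium were followed across the RNA libraries of mouse epididymal white fat. The 35 members, of 20624 genes in the deposited RNA table, are the genes whose symbol begins with Dnahc, Dnaic, Dnali, Rsph, Tekt, Spag or Spef, together with Foxj1, Hydin and Tppp3. They comprise 7 Dnahc, 2 Dnaic and 1 Dnali dynein genes, 3 radial spoke genes, 5 tektins, 12 Spag and 2 Spef genes, and the 3 genes named singly. The study gave CD-1 mice, an outbred stock, bisphenol A (BPA), an estrogen-like plasticizer, or corn oil during pregnancy, and took the epididymal fat of their male offspring for RNA and for methylated DNA. In the BPA group, 6 males came from mothers that had swallowed 500 ug per kg of BPA daily between gestational days 9 and 18. The vehicle group held 6 males whose mothers had received the oil alone over the same days. All 12 animals ate the same chow with 4% fat and were sampled at 19 weeks of age, with 1 RNA library each. Litters are not named in the labels, and each p-value takes the 6 animals of a group as unrelated.

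A motile cilium is built around the axoneme, a ring of doublet microtubules with a pair of microtubules at its centre. Outer and inner dynein arms move the doublets against each other, radial spokes pass signals from the central pair to the arms, and tektins run along the doublet walls. Foxj1 is the forkhead factor that switches on this set of genes in ciliated epithelia, and RFX factors bind the X-box in the promoters of many of them. Sperm tails share the axoneme, and many axonemal genes are therefore used both in ciliated cells and in male germ cells. Epididymal fat lies against the epididymis and the efferent ducts, whose lining holds ciliated cells beside absorptive ones, whereas adipocytes carry no motile cilia.

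Values are the authors' normalized signal per gene, scaled to a common library size, and they are not corrected for gene length. Signals are therefore compared between libraries within a gene and not between genes. The signal summed to between 9628801 and 11582945 per library and the sequencing depth is unknown. Each of the 7 white adipocyte markers was high in every library, and their summed signal lay between 315060 and 488061 in BPA libraries and between 260902 and 433982 in vehicle libraries. Fewer cells of a type and less RNA per cell cannot be told apart in such bulk samples.

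The members were sorted by their Spearman rho with Foxj1 and with Prm1 over the 12 animals, Prm1 being the protamine that packs DNA in spermatids. A member was said to follow 1 of these 2 genes when its rho with it was at least 0.6 and exceeded the other rho by at least 0.2. Members needed a signal of at least 5 in at least 2 libraries to be classed. These correlations are a description over 12 libraries that share scaling and tissue composition, and they carry no test. Of the 34 members other than Foxj1, 21 followed Foxj1, 1 followed Prm1, 0 followed both, 7 followed neither and 5 were too low to class. The 21 make up 72.4% of the 29 members classed, where 9.55% of 14719 genes classed in the same way followed Foxj1. The single follower of Prm1 was Rsph9, where the share among all genes was 0.795% for Prm1 and 0.414% for both.

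The 27 members with an entry in the RefSeq promoter table of GRCm38.p6 had 31 promoters of 300 bases, running from 250 bases before the transcript start to 50 bases after it. GTTGCC, an arm of the X-box, stood on either strand in 11 of the 21 promoters of genes that followed Foxj1 (52.4%), in 0 of the 10 promoters of other members, and in 12.5% of all 32851 promoters of the table. These 11 promoters belong to 10 of the 18 followers with an entry, which are Dnahc7b, Dnahc10, Dnaic2, Hydin, Spag8, Spag16, Spef2, Tekt1, Tekt2 and Tekt4. The longer arm GTTGCCATG was in none of the members' promoters, against 0.773% of all promoters. A whole X-box was in the promoter of Rsph9 only among the members, and in 0.505% of all promoters. TGACGTCA, the cyclic AMP response element used by germ cell factors, was in that of Spag4 only, and in 1.79% of all. Its shorter form TGACGT, which overlaps the longer one, was in promoters of Dnaic1, Tekt1 and Spag4, and in 7.51% of all. The forkhead sequence GTAAACA was in the Tekt3 promoter only, and in 3.65% of all. All motifs were searched on both strands, and a match is a run of letters, not a bound site.

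Of these promoters 6 are printed 5′ to 3′ in the direction of the gene, because they show the GTTGCC arms of 5 genes that followed Foxj1 and the whole X-box of the gene that followed Prm1. Capitals mark GTTGCC, its reverse complement, or the whole X-box. The sequences are RefSeq's, on GRCm38.p6.
Dnahc10, chr5:124724835-124725134, plus strand: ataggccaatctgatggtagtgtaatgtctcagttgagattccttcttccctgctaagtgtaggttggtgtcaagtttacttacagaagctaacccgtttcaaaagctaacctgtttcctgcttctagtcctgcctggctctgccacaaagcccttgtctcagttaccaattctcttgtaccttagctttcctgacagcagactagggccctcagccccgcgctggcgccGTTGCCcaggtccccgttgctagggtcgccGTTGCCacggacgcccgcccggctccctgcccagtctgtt
Dnaic2, chr11:114727169-114727468, plus strand: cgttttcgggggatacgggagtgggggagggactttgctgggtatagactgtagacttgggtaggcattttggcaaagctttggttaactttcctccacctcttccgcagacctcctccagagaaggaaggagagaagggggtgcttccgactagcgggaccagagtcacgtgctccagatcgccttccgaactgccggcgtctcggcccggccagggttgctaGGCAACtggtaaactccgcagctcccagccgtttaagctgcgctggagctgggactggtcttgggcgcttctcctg
Hydin, chr8:110266727-110267026, plus strand: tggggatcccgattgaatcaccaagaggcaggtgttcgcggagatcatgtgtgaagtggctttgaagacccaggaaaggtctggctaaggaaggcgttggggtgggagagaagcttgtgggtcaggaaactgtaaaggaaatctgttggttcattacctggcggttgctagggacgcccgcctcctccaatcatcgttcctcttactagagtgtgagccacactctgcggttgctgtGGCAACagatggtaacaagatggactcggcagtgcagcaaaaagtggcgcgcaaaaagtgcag
Spag16, chr1:69826720-69827019, plus strand: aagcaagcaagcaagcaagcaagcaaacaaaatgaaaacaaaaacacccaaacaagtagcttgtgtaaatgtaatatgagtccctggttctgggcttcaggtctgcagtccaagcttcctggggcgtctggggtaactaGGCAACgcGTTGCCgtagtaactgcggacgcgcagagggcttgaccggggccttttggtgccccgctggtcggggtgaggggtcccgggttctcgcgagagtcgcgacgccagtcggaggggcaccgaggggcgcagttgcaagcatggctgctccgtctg
Tekt1, chr11:72361833-72362132, minus strand: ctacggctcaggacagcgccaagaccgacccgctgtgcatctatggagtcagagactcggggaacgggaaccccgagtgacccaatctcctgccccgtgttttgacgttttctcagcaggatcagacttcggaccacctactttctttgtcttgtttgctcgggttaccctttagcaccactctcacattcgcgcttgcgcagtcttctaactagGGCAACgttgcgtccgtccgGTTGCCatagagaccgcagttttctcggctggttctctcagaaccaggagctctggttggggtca
Rsph9, chr17:46144151-46144450, minus strand: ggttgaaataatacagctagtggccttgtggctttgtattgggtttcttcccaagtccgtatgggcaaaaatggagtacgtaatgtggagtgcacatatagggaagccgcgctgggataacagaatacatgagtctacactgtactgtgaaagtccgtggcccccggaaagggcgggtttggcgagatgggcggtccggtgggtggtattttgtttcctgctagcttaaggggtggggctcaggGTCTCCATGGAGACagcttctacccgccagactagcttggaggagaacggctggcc

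In Spag16 the 2 arms begin 111 and 103 bases before the start, and in Tekt1 they begin 35 and 15 bases before it. In both genes the arm on the reverse strand comes first, so the arms point away from each other. Dnahc10 holds 1 arm on each side of the start, beginning at base -20 and at base 10. Hydin and Dnaic2 each have 1 exact match to GTTGCC, on the reverse strand, that begins 13 and 26 bases before their starts. Inexact second arms were not searched. The whole X-box of Rsph9 begins 6 bases before the start.

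Foxj1 itself was at 0.00, 49.0, 0.446, 0.830, 136 and 1.61 in the BPA libraries in the order of their numbers, against 2.03, 28.3, 0.643, 0.832, 16.9 and 145 in the vehicle libraries. Signal was thus present in 2 BPA animals (BPA 2 and BPA 5) and 3 vehicle animals (vehicle 2, 5 and 6), and was at 2.03 or less in the others of both groups. On log2(signal + 1), Foxj1 averaged 2.59 ± 3.00 in BPA animals and 3.24 ± 2.60 in vehicle animals (SD, n = 6 each). The difference of -0.65 was well inside the spread between animals (two-sided exact permutation test over 924 assignments, p = 0.701). Without vehicle 6 the difference was 0.14, and without BPA 5 it was -1.55.

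**Figure D1:**
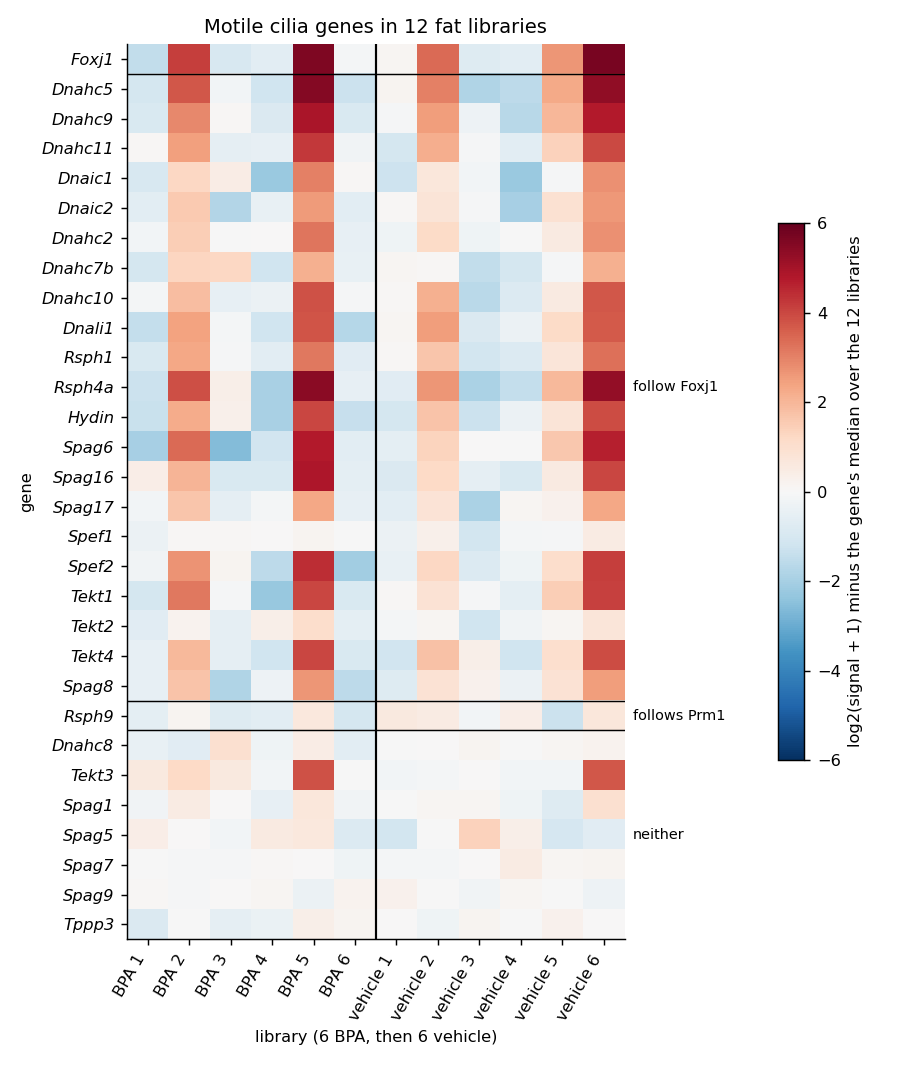
Each row is a gene, with Foxj1 on top and the classed members below it in 3 blocks by class, and each column is a library, with the 6 BPA libraries left of the 6 vehicle libraries. Colour is log2(signal + 1) minus the gene's median over the 12 libraries, and the red columns of the followers of Foxj1 are BPA 2, BPA 5, vehicle 2, vehicle 5 and vehicle 6.

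The 21 followers were chosen for their rho with Foxj1 over these 12 libraries, so that shared high libraries follow in part from the choice, and the values here are a description. For 17 of them the 3 highest libraries were BPA 2, BPA 5 and vehicle 6, and the highest of all was BPA 5 for 17 and vehicle 6 for 4. The signal of a follower was, in the median over the 21 genes, 14.2 times the gene's own 12-library median in BPA 5 and 4.09 times in BPA 2, all on signal + 1. In the vehicle group it was 13.2 times in vehicle 6, 2.37 times in vehicle 2 and 1.82 times in vehicle 5. The other 7 libraries lay between 0.538 times in BPA 4 and 0.927 times in BPA 3. All 21 followers were above their own median in BPA 2, BPA 5, vehicle 2 and vehicle 6, and 18 were in vehicle 5. Among the 210 pairs of followers, rho had a median of 0.78 and ranged between 0.41 and 0.95, with the same limit.

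Among the 3 highest libraries the followers stood in similar proportions in BPA 5 and vehicle 6, but less so in BPA 2. Over the 16 followers with a signal of at least 20 in each of the 3, the ratio of BPA 5 to vehicle 6 lay between 0.781 and 1.37 with a median of 1.08, and Foxj1 had 0.938. The ratio of BPA 5 to BPA 2 lay between 1.07 and 4.13 with a median of 2.75, and Foxj1 had 2.78. The follower nearest to 1 in the second ratio was Spef1, which moved least of all followers. Each of these ratios compares single animals and has no replicate.

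Of the outer arm dyneins, 5 of 5 genes followed Foxj1, with Dnahc8 of the sperm tail counted apart and given below. Dnahc5, a heavy chain that powers the outer arm, had lowest, median and highest signals of 7.80, 13.8 and 982 in BPA animals and of 5.19, 63.6 and 858 in vehicle animals. For Dnahc9, a second outer arm heavy chain, the values were 7.80, 12.3 and 499 in BPA animals and 4.26, 40.3 and 450 in vehicle animals. Dnahc11, a heavy chain of the same arms, was at 52.4, 73.0 and 1485 in BPA animals and at 36.3, 137 and 1225 in vehicle animals. The groups overlapped over nearly their whole range for all of them, and the top value belonged to BPA 5 each time, followed by vehicle 6. Of the intermediate chains that anchor the arm, Dnaic1 was at 0.00, 4.67 and 37.5 in BPA animals and at 0.00, 3.38 and 30.5 in vehicle animals. Dnaic2 was at 1.29, 4.29 and 44.5 in BPA animals and at 0.905, 9.53 and 46.2 in vehicle animals. The Spearman correlation of these genes with Foxj1 ranged from 0.67 for Dnahc11 to 0.87 for Dnaic2.

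Inner arm dyneins followed Foxj1 as well, with 4 of 4 genes and rho from 0.72 for Dnahc2 to 0.88 for Dnahc10. Dnahc10, a heavy chain of the inner arms, had 9.20, 12.4 and 203 in BPA animals and 3.70, 16.9 and 189 in vehicle animals. Dnahc2, another inner arm heavy chain, had 10.2, 14.5 and 141 in BPA animals and 12.1, 17.8 and 103 in vehicle animals. Dnali1, the light intermediate chain of inner arms, had 1.603, 4.77 and 115 in BPA animals and 3.65, 13.0 and 106 in vehicle animals. These 3 genes had their top values in BPA 5 and vehicle 6 too, but vehicle 2 stood above BPA 2 for Dnahc10 and for Dnali1. Dnahc7b ranged between 2.72 and 36.2 in BPA animals and between 1.98 and 35.4 in vehicle animals, and its signal is uncertain because of the near-identical Dnahc7a and Dnahc7c. Dnahc8, a dynein heavy chain of the sperm tail, was the only Dnahc gene that followed neither gene, with a rho of 0.13 with Foxj1 and 0.35 with Prm1. It was at 39.2, 49.8 and 124.1 in BPA animals and at 62.5, 67.2 and 74.4 in vehicle animals, and its highest library was BPA 3, where Foxj1 was near 0.

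**Figure D2:**
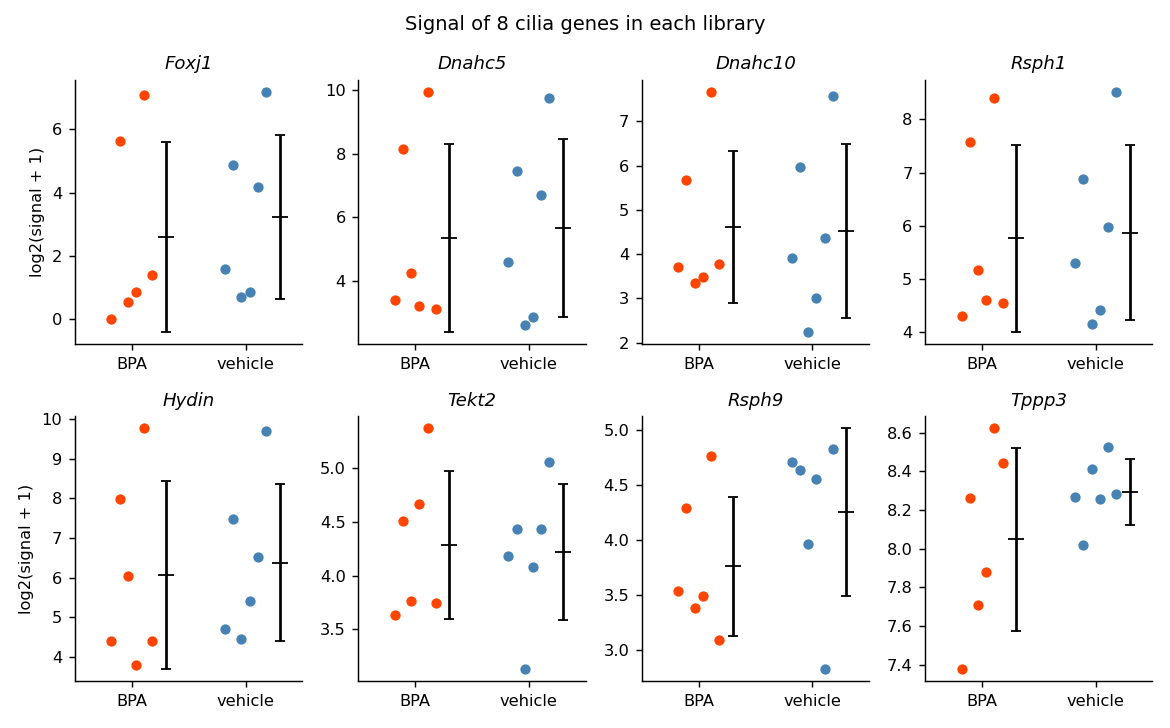
Each panel shows 1 gene, with the 6 BPA animals left of the 6 vehicle animals on a log2(signal + 1) axis that does not start at 0 in most panels, and the bars give the mean and SD of each group. For Foxj1, Dnahc5, Dnahc10, Rsph1 and Hydin a few animals of both groups stand far above the rest, whereas Tekt2, Rsph9 and Tppp3 are less spread.

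Of the 3 classed radial spoke genes, 2 followed Foxj1 and 1, by a narrow margin, followed Prm1. Rsph4a, a component of the spoke head, was at 3.63, 16.7 and 747 in BPA animals and at 3.74, 39.1 and 681 in vehicle animals. Rsph1, also of the spoke head, was at 18.6, 29.1 and 338 in BPA animals and at 16.7, 50.1 and 366 in vehicle animals, and its rho with Foxj1 of 0.90 was the highest of any member. Both followed Foxj1 with high values in the same animals as the dyneins. Rsph9, the remaining spoke head gene, was at 7.56, 10.5 and 26.1 in BPA animals and at 6.12, 23.2 and 27.4 in vehicle animals. Its rho was 0.79 with Prm1 and 0.59 with Foxj1, just past the gap of 0.2 that the class requires. With each library left out in turn, Rsph9 met the rule in 5 of 12 cases and missed it in 7, namely without BPA 1, BPA 4, BPA 6, vehicle 1, vehicle 3, vehicle 4 or vehicle 5. Rsph9 was high in vehicle 1 and vehicle 4, where Foxj1 was at 2.03 and 0.832, and lowest in vehicle 5, where Foxj1 was at 16.9. Prm1 gives this class a weak footing, because it was under 1 in 7 of the 12 libraries and reached only 2.59 in BPA animals (in BPA 5) and 10.8 in vehicle animals. With Tnp2 and Pax8 in place of Prm1 and Foxj1, Rsph9 no longer followed the germ cell gene and Dnahc8 did, although Tnp2 was under 1 in 11 libraries.

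Central pair genes followed Foxj1 in 6 of 6 cases. Hydin, whose loss in mice causes hydrocephalus, was at 13.0, 42.8 and 864 in BPA animals and at 21.0, 66.4 and 831 in vehicle animals. Spag17, a protein of a central pair projection, was at 10.9, 14.8 and 85.4 in BPA animals and at 3.64, 18.8 and 85.3 in vehicle animals. Both genes were highest in BPA 5 and vehicle 6 and nearly equal between these animals. Spag6, another protein of the central pair, was at 0.00, 2.31 and 161 in BPA animals and at 3.04, 9.70 and 152 in vehicle animals, and cannot be told from its related copy Spag6l under this symbol. Spef2, needed for central pair assembly, was at 0.321, 4.52 and 117 in BPA animals and at 2.13, 7.14 and 98.2 in vehicle animals. Spag16, a further central pair protein, was under 1 in 6 libraries and reached 52.7 in BPA 5 and 28.6 in vehicle 6. Spef1, a microtubule-binding protein of the central pair, differed from these. It was at 21.4, 28.3 and 30.6 in BPA animals and at 12.1, 25.6 and 39.2 in vehicle animals, its highest value was only 1.42 times its median, and with a rho of 0.62 it was the member just inside the limit of 0.6.

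Tektins were split between followers and genes that could not be placed. Tekt1, a tektin of cilia and sperm tails, was at 0.00, 2.62 and 77.0 in BPA animals and at 2.26, 5.89 and 83.5 in vehicle animals. Tekt4 was under 1 in 6 libraries and reached 35.0 in BPA 5 and 33.5 in vehicle 6. Tekt2 moved less, with 11.4, 17.2 and 40.3 in BPA animals and 7.77, 18.9 and 32.4 in vehicle animals. All of these 3 followed Foxj1, with rho between 0.68 and 0.85. Tekt3, known from mouse sperm, reached 14.7 in BPA 5 and 13.8 in vehicle 6 and was under 1 in 9 libraries, so that its ranks rest on values near 0 and its rho with Foxj1 was 0.32. Tekt5, also a sperm tektin, stayed under 3 in every library and was not classed.

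The remaining members are Tppp3 and Spag genes, which were named for sperm antigens and differ in function. Spag8, known as a protein inside the doublet microtubules of the axoneme, followed Foxj1, with a rho of 0.78 and top signals of 21.1 in BPA 5 and 18.7 in vehicle 6. Spag9, a scaffold of kinase signalling and motor transport, was at 3646, 4807 and 5349 in BPA animals and at 3835, 4658 and 5618 in vehicle animals, and its rho with Foxj1 was -0.51. Spag7 was at 74.6, 88.4 and 93.9 in BPA animals and at 82.8, 95.1 and 128 in vehicle animals, with a rho of 0.02. Spag9 was at its lowest in BPA 5 and in vehicle 6 within their groups, and Spag7 was highest in vehicle 4, where Foxj1 was at 0.832. Spag5, a protein of the mitotic spindle, was at 5.13, 11.7 and 15.7 in BPA animals and at 4.04, 7.83 and 27.0 in vehicle animals. Spag1, a factor for dynein arm assembly, was between 29.0 and 68.6 in BPA animals and between 24.1 and 83.3 in vehicle animals, with a rho of 0.55 with Foxj1 and 0.49 with Prm1. Tppp3, a tubulin-binding protein found in ciliated cells and also in connective tissue cells, was at 165, 270 and 393 in BPA animals and at 258, 309 and 368 in vehicle animals. Its rho of 0.58 with Foxj1 placed it just outside the limit. Spag4, between 0.726 and 4.76 in BPA animals and between 1.01 and 4.35 in vehicle animals, Spag4l, Spag11a and Spag11b were too low to class, and Spag11a was under 1 in all 12 libraries, as was Spag4l. The 2 Spag11 genes are close paralogs, and reads may be split between them.

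**Figure D3:**
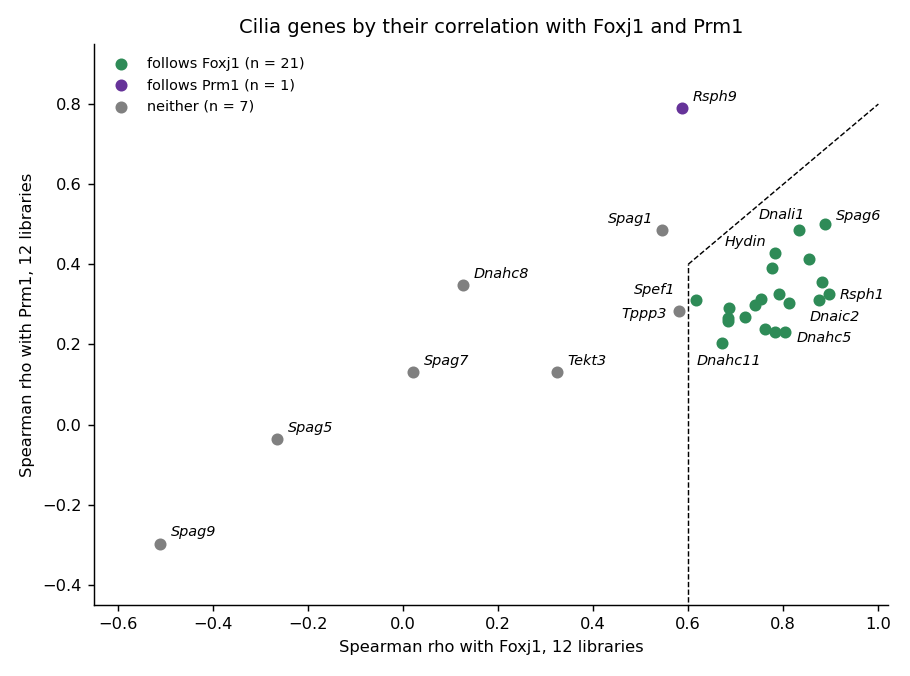
Each point is 1 of the 29 classed members other than Foxj1, placed by its Spearman rho with Foxj1 (x) and with Prm1 (y) over 12 libraries, and dashed lines bound the class that follows Foxj1. The 21 followers lie between 0.62 and 0.90 on x and between 0.20 and 0.50 on y, and Rsph9 stands alone above 0.6 on y.

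The followers' rho with Foxj1 was lower without the animals highest in Foxj1, where the range of Foxj1 is also narrower. Over the 21 genes rho with Foxj1 had a median of 0.78 and a range of 0.62 to 0.90, and rho with Prm1 a median of 0.31 and a range of 0.20 to 0.50. Without BPA 5 and vehicle 6, which are farthest from the median of Foxj1, the median was 0.64 over 10 libraries and 13 of the 21 stayed at 0.6 or above. Without BPA 2 as well, the median was 0.50 over 9 libraries, with a range of 0.23 to 0.75, and 21 of 21 were above 0. Foxj1 was under 1 in 5 of those 9 and above 2.03 only in vehicle 2 and vehicle 5, so most of its ranks there rest on values near 0. The 21 genes were also chosen by their rho over libraries that include these 9. Over those 9 libraries 8 members met the rule for following Foxj1, and the pairs of followers had a median rho of 0.49, with 200 of 210 above 0. With Prm2, another protamine, in place of Prm1 over all 12 libraries, 11 members followed Foxj1 and 0 followed Prm2, whose own rho with Foxj1 was 0.71.

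The genes ranked most like Foxj1 were not among the members, which are set by symbol, so that cilia genes with other symbols are not counted as members. Among 11276 genes with a highest signal of at least 50, the 10 with the highest rho with Foxj1 over the 12 libraries were Cyp2j13 (0.98), Nek11 (0.97), Ccdc108, Col4a3, Pax8, Myo7b and 1700021K14Rik (0.96 each), Rbks and Lrriq1 (0.95 each) and Dao (0.94). The first member ranked 56th, and 3 members were among the first 100, where no more than 34 of the 11276 genes can be members. Dynlrb2, a marker of ciliated cells that is not a member, ranked 25th. The choice of these 10 genes fixes that they rank the animals much as Foxj1 does, but 8 of them had their highest signal in BPA 5 and 2 in vehicle 6, where Foxj1 had its own. Pax8, a transcription factor of renal and genital duct epithelium, was at 0.492, 199, 2.79, 0.819, 662 and 5.35 in the BPA libraries, against 10.1, 87.1, 2.27, 6.34, 73.6 and 494 in the vehicle libraries. Its highest signal was in BPA 5, where Foxj1 was second.

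Most classed markers of the duct lining that are not cilia genes moved with the members. Of 18 markers of non-ciliated efferent duct epithelium, 16 could be classed, and none was under 1 in every library. Of the 16, 11 followed Foxj1 (68.8%), where 9.55% of all genes classed did. The summed signal of the 18 was between 3538 and 23354 in BPA animals and between 3805 and 16200 in vehicle animals, with the top values in BPA 5 and vehicle 6. Most of the lowest sum, that of BPA 4, came from Dab2 at 2197 and Aqp1 at 1150, and Pax8 was at 0.819 and Epcam at 2.69 there. Lrp2, the endocytic receptor megalin, was at 51.8 in BPA 6 and 11906 in BPA 5, against 118 in vehicle 3 and 6882 in vehicle 6. The 5 duct markers that followed neither gene were Aqp1, Krt19, Slc9a3r1, Cubn and Krt18. Their rho with Foxj1 was 0.29, 0.45, 0.61, 0.37 and 0.56 in that order, and Amn and Cldn4 were too low to class. BPA 5 exceeded vehicle 6 by 1.34 times for Pax8 and 1.73 times for Lrp2, where the median of the cilia followers was 1.08 times. Of the 25 ciliated cell markers in the table, 24 besides Foxj1 could be classed and 20 of them followed Foxj1 (83.3%), with a summed signal between 498 and 4099 in BPA animals and between 606 and 3480 in vehicle animals. This list shares Tppp3 and Foxj1 with the members. It also shares genes with the pathway lists given below, among them Rfx2, Myb, Armc4 and Ccdc39, so the shares of these lists are not independent. The part of these cell types in the members' values was not tested.

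Summed markers of other cells of the male tract were correlated with Foxj1 for 3 of 4 lists, although few of their genes met the rule for following it alone. The rho of the summed signal with Foxj1 was 0.73 for epididymal epithelium, 0.64 for haploid germ cells and 0.83 for Sertoli and Leydig cells, beside 0.77 for the duct lining and 0.97 for ciliated cells, and it was -0.42 for earlier germ cells. The 14 epididymal epithelium markers summed to between 6.45 and 57.4 in BPA animals and between 11.9 and 4981 in vehicle animals, with the excess in vehicle 6 and, at 673, in vehicle 4. Of these markers 10 were too low to class, 2 followed both genes, 0 followed Foxj1 alone, and 4 (Lcn8, Lcn9, Lcn10 and Cst11) were under 1 in all libraries. Of 21 haploid germ cell markers, 14 could be classed, of which 6 followed Prm1, Prm1 itself among them, 3 followed both and 0 followed Foxj1. Their summed signal was between 53.3 and 107 in BPA animals and between 56.1 and 228 in vehicle animals. Prm3 was under 1 in every library. The highest sums were those of vehicle 4, where Foxj1 was at 0.832, and of vehicle 6, where it was at 145.

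Of 8 markers of earlier germ cells 0 followed Foxj1, 4 being too low to class, and of 8 markers of Sertoli and Leydig cells 1 did, Cldn11, which codes for a tight junction protein. The summed signal of earlier germ cell markers was between 1995 and 4264 in BPA animals and between 2065 and 4132 in vehicle animals, nearly all of it from Sycp3 and Zbtb16. Their lowest signals over all libraries were 1131 and 766, and the rho of this sum with Foxj1 is mostly theirs. The summed signal of Sertoli and Leydig markers was between 82.5 and 145 in BPA animals and between 72.1 and 187 in vehicle animals. Most of that signal came from Star, which followed both genes, whereas Insl3, Cyp11a1 and Cyp17a1 followed neither. None of the 7 adipocyte markers and none of the 7 mesothelium markers followed Foxj1 or Prm1. For the mesothelium markers the log2 fold on log2(signal + 1) was below 0 for 7 of 7, while the mean signal was lower in BPA animals for 5 and higher for Upk1b and Krt7, both of them highest in BPA 3. Of the 7, 2 had an unadjusted limma p under 0.05, where 1.91% of all genes tested had one and 0.974% had one with a lower level in BPA animals, and 0 were past the adjusted threshold. Their sums lay between 319 and 2748 in BPA animals and between 762 and 2797 in vehicle animals.

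Within the wider cilium pathway, the share that followed Foxj1 differed by function. Of 24 genes of the nexin link and central pair, all of them classed, 18 followed Foxj1, among them Ccdc39, which sets the spacing of the axoneme and lay between 32.5 and 378. The 5 genes of this list with the highest mean signal, Iqcg, Nme7, Ccdc39, Mns1 and Kif9, all followed Foxj1, and Mns1 was at 409 in BPA 5 and 396 in vehicle 6 with a median of 18.7 over all libraries. Of 14 factors that assemble dynein arms, 9 followed Foxj1 (64.3%), including Armc4, a docking factor for outer arms with 130 in BPA 5 and 132 in vehicle 6. Among those with the highest means, Ruvbl2, a chaperone that all cells use, also followed Foxj1 but stayed between 334 and 573, and Heatr2, Pih1d1 and Dyx1c1 followed neither gene.

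Regulators of the ciliated state gave fewer followers, with 4 of 9 classed (44.4%), namely Myb, Rfx1, Trp73 and Ccno. Myb, which drives ciliated cell formation early on, was at 234 in BPA 5 and 180 in vehicle 6 with a median of 7.43. E2f4, E2f5, Rfx2 and Rfx3, the others among the 5 with the highest means, had rho with Foxj1 of 0.45, 0.73, 0.56 and 0.58, E2f5 following both genes. Intraflagellar transport, which primary cilia also need, had 6 of 18 followers (33.3%). Dync2h1, the motor of retrograde transport, lay between 462 and 1469 and Ift20 between 407 and 697, and both followed Foxj1, whereas Kif3a, Kif3b and Ift172 followed neither gene. Of 12 cytoplasmic dynein and tubulin genes used by all cells, 0 followed Foxj1, and Dync1h1, the cytoplasmic dynein heavy chain, had a rho of -0.79. Across these lists 0 genes were past the adjusted threshold between BPA and vehicle animals.

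**Figure D4:**
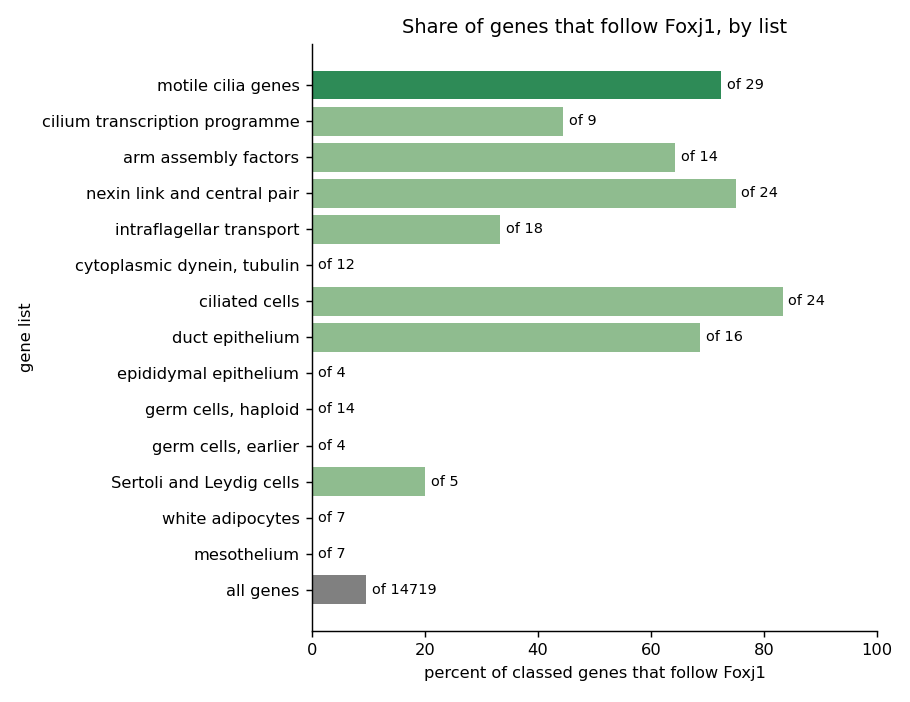
Bars give the percent of classed genes in each list that follow Foxj1, with the number of classed genes beside each bar, for the motile cilia genes (top), the pathway and cell type lists, and all genes of the table (bottom). Cilia, nexin link, arm assembly and duct lists lie between 64.3% and 83.3%, against 9.55% of all genes. Ciliated cell markers are in part also genes of the pathway lists.

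Between BPA and vehicle animals, no motile cilia gene differed beyond the spread between animals. Of the 18 members that passed the filter of at least 10 in at least 6 libraries, 0 were called by limma at a Benjamini-Hochberg adjusted p under 0.05, where 0% of the 12528 genes tested were called. The smallest adjusted p of any gene was 0.9997. At an unadjusted p under 0.05 there were 0 of 18 members, against 239 of all genes, or 1.91%, made up of 0.934% higher and 0.974% lower in BPA animals. The other 17 members, Foxj1 among them, did not pass the filter, and so the 18 are not a sample of all members. Estimates of log2 fold change on log2(signal + 1) were above 0 for 8 and below 0 for 10 of them, with a median of -0.02, beside a median of 0.0032 over all genes tested. The groups' ranges overlapped for all 18, where 0.0319% of all genes had ranges that did not overlap.

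Precision differed between the classes. The 95% intervals of the 11 followers of Foxj1 among the 18 reached between 0.54 and 3.10 log2 units to each side, those of the other 7 between 0.24 and 0.94, and that of the median gene 0.34. Dnahc5 had an estimate of -0.32, with an interval from -3.41 to 2.76, so a change of several fold in either direction was not detectable at this spread. Among members Tppp3 came nearest to a difference, with a log2 fold of -0.25, from -0.65 to 0.16 (limma adjusted p = 0.9997). Its signal was 276 ± 87.3 in BPA animals and 315 ± 36.9 in vehicle animals (SD, n = 6 each). Rsph9 had the lowest log2 fold of -0.49, from -1.32 to 0.34, and a signal of 13.8 ± 7.14 in BPA animals and 19.96 ± 8.06 in vehicle animals. Spag17 had the highest, 0.29, from -1.17 to 1.74. For Spag9, measured with the narrowest interval, the log2 fold of 0.02 lay between -0.23 and 0.26.

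The direction of the followers' estimates depended on single animals. Leaving out BPA 5 moved the log2 fold of Dnahc5 to -1.24, and leaving out vehicle 6 moved it to 0.49. For Hydin these values were -1.05 and 0.35, and for Rsph4a, whose estimate over all animals was -0.0016, they were -0.89 and 0.85. Without BPA 2, BPA 5 and vehicle 6 the 14 members still past the filter again gave 0 calls. These 3 animals are also the 3 highest in Foxj1, so no difference in Foxj1 is read from the remaining 9. A further comparison, in the authors' deposited table of 9522 genes whose highest value is at least 100, is not of BPA with vehicle. Its p-values set vehicle 2, vehicle 3 and vehicle 5 against the other 9 animals, since this grouping returned the deposited p within 0.0001 for all 9522 genes. In that authors' deposited table the 16 members had p-values between 0.452 and 0.865, and 0 were under 0.05, where 5.5% of its genes were.

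**Figure D5:**
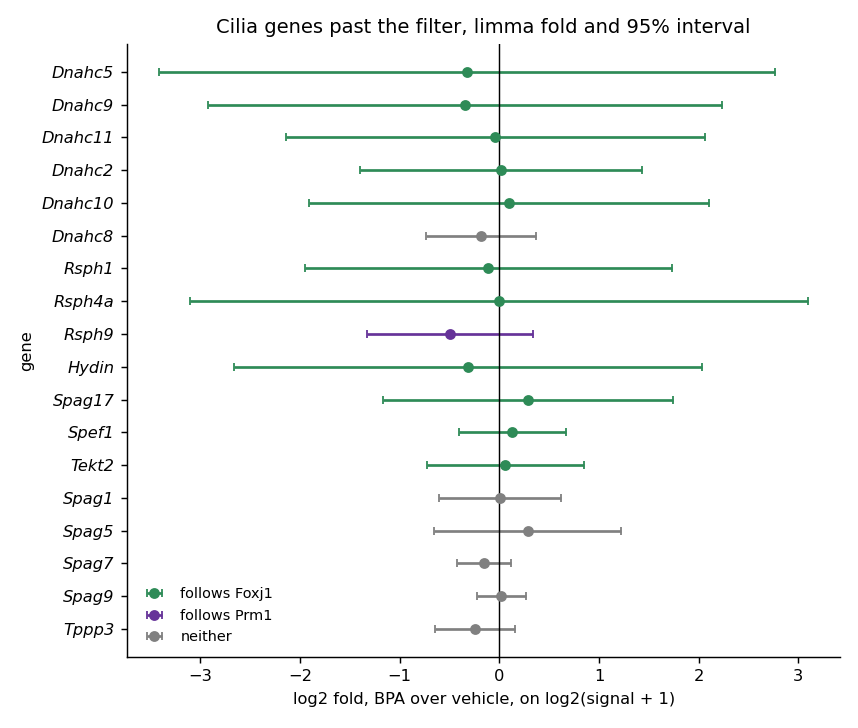
Points are limma log2 folds of BPA over vehicle for the 18 members past the filter, ordered by role, and bars are 95% intervals. Every interval holds 0, and those of the followers of Foxj1 are widest for Dnahc5, Rsph4a, Dnahc9 and Hydin.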

How the data were processed

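RNA was depleted of ribosomal RNA and sequenced on SOLiD, per the labels' protocols. The submitters' processing notes name mm9 and edgeR, while for the aligner, the annotation and all versions there is no statement in the labels or file headers. Each deposited signal is the authors' edgeR-normalized value per gene, not a raw count. Low values fell on whole multiples of a step (within 0.1 of a step) for at least 95% of values in only 2 of 12 libraries, so whole reads were not recovered. A panel of 13 genes above the table repeated 12 of its rows, which were dropped. No 2 libraries were identical. The authors' deposited p-values were copied, and recomputed only to identify the animals they compare. The methylation data were not analysed here.

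BPA was compared with vehicle over 12528 genes on log2(signal + 1), by limma 3.58.1 with eBayes trend (R 4.3.3). Fold changes on this scale understate those of low genes. Tests are two-sided and adjusted by Benjamini-Hochberg over all genes tested. On data simulated from this table with 100 genes changed by 1 log2 unit and 100 by 2, the fit called 70 and 89 of them. Those genes were drawn at random from all genes tested, with noise independent between genes. The rates do not carry over to the followers of Foxj1, whose intervals were wider than that of the median gene. Foxj1 was tested by exact permutation. Correlations and motif searches used Python 3.11.15, pandas 2.3.3 and scipy 1.17.1.

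Members, marker lists, pathway lists and motifs were chosen with earlier results of these data known. Named members are Foxj1, Hydin and Tppp3, all members past the filter, the 4 highest means in each of 6 families and the 5 largest rho gaps in each of 2 classes, and the others are named only to account for every member. The 10 genes most like Foxj1 were named likewise. So were the 5 highest means of each pathway list except that of cytoplasmic dynein and tubulin. From that list and the cell type lists only some genes are named.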

Additional observations from a re-analysis of the deposited data

Results flagged for a closer look

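In 30 of 54 groups of 6 animals, over the 27 named members, the highest animal stood apart by Dixon's criterion, which sets its gap to the next animal against the group's whole range. Chance alone gives about 1 in 20 groups where values are normally distributed. The criterion was applied to signal without logs, which has a long upper tail, so that rate need not hold here. Members that vary together are also not independent. The animal that stood apart was BPA 5 in 12 cases and vehicle 6 in 18.

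BPA 5 stood apart for Foxj1 at 136, with 49.0 next. Among dyneins it did so for Dnahc5 at 982, Dnahc9 at 499, Dnahc11 at 1485, Dnahc10 at 203, Dnahc2 at 141 and Dnaic1 at 37.5. It also did so for Hydin at 864, Rsph4a at 747, Spef2 at 117, Tekt3 at 14.7 and Tekt4 at 35.0.

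Vehicle 6 stood apart for all of these 12 genes. Foxj1 was at 145 there, with 28.3 next, Dnahc5 at 858, Dnahc9 at 450, Dnahc11 at 1225, Dnahc10 at 189, Dnahc2 at 103 and Dnaic1 at 30.5. Hydin was at 831, Rsph4a at 681, Spef2 at 98.2, Tekt3 at 13.8 and Tekt4 at 33.5. Vehicle 6 stood apart for 6 further members, namely Dnaic2 at 46.2, Tekt1 at 83.5, Spag6 at 152, Spag17 at 85.3, Spag1 at 83.3 and Rsph1 at 366. For these 6 the BPA group had BPA 2 nearer to BPA 5, as with Tekt1 at 42.5 in BPA 2 and 77.0 in BPA 5.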

How the results depend on the processing

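The count of genes called between BPA and vehicle stayed at 0, and that of members at 0, under every setting fitted: pseudocounts of 0.5 and 5, no filter or a filter of 1 in 3 libraries, quantile or upper-quartile scaling, the block, each library left out and the 3 libraries highest in duct markers (BPA 2, BPA 5 and vehicle 6) left out together. Genes with an unadjusted p under 0.05 numbered between 186 and 497. Correlations of same-numbered libraries ran from -0.569 to 0.398. They gave no sign that replicate numbers pair the animals, but cannot exclude it, because tissue composition also enters them. With the replicate block 0 genes were called and the difference in Foxj1 was -0.65 (exact sign-flip permutation, p = 0.656).

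The sign of several small fold changes turned, and the cause was not tested. Rsph4a became 0.0065 with a pseudocount of 5, and Dnahc10 became -0.010 under quantile normalization. Upper-quartile scaling gave -0.0018 for Tekt2, -0.047 for Dnahc2, -0.049 for Spag9 and -0.059 for Spag1. Without BPA 2, BPA 5 and vehicle 6, the values were -0.054 for Spag17, -0.10 for Tekt2, -0.32 for Dnahc10, -0.40 for Dnahc2 and -0.079 for Spag1. With each library left out in turn, log2 folds ranged between -1.24 and 0.49 for Dnahc5, -1.15 and 0.37 for Dnahc9, -0.71 and 0.56 for Dnahc11, -0.51 and 0.71 for Dnahc10, and -0.49 and 0.43 for Dnahc2. They ranged between -0.89 and 0.85 for Rsph4a, -0.64 and 0.42 for Rsph1, -1.05 and 0.35 for Hydin, -0.12 and 0.72 for Spag17, -0.065 and 0.26 for Spef1, -0.16 and 0.23 for Tekt2, -0.15 and 0.20 for Spag1, and -0.034 and 0.090 for Spag9. The difference in Foxj1 ranged between -1.55 and 0.14.

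The count of members that followed Foxj1 was 21, and between 14 (without BPA 2) and 22 with each library left out. It was 8 without the 3 libraries highest in duct markers, 13 without the 2 farthest from the median of Foxj1, and 11 with Prm2 as the germ cell gene, an alternative chosen after seeing the data that also gave 0 followers of the germ cell gene. With Odf1 in that place, likewise chosen later, it was 19. Of the 21, 20 or more kept their class under Pearson correlation, a limit of 0.5, signal minimums of 1 and 20, Pax8 and Tnp2 as anchors, and values under 1 set equal, the last also chosen after seeing the data, and 16 kept it under a limit of 0.7. Followers of Prm1 numbered between 0 and 2 with each library left out and 2 under upper-quartile scaling. The depth is unknown, so members with signals near 0 were not ranked reliably.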
